A study of Mus musculus with 8 samples.

Results

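The transcripts described here come from genes that GENCODE release M21 of the mouse genome (mm10) does not call protein-coding and that carried at least 1 peak of N6-methyladenosine (m6A) in mouse embryonic stem cells (ESCs). A gene was taken when the exon blocks of a peak shared 1 or more bases with its exons on its strand, while the peak shared no base with an exon of a protein-coding gene on that strand. Zscan4a was left out by this rule. The genes were thus chosen by the presence of a peak, and that they carry peaks is not a result. There were 134 such genes among 6408 genes with a peak in either treatment, 6214 of them protein-coding. Another 59 noncoding genes had peaks only where those peaks also touched coding exons, and were not taken.

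The cells were E14 ESCs that hold a doxycycline (Dox)-inducible transgene of Dux, a transcription factor of the 2-cell embryo, and a tdTomato reporter driven by the Mervl promoter. They were given DMSO, the solvent, or Dox for 24 h, so that control and treated cells share both transgenes. Methylated RNA immunoprecipitation sequencing (MeRIP-seq) was done on fragmented poly(A) RNA, with an antibody-selected part (IP) and an unselected part (input), in 8 libraries, 4 groups of 2 replicates. The peaks came as 1 list per treatment, 18895 peaks for DMSO and 13001 for Dox, so that no value has a replicate error and no test between treatments was possible. Each peak has a score, taken here for the −log10 of the authors' p-value of IP over input, and its percentile here is its rank among all peaks of its own list. Intervals are Wilson 95% intervals and cover counting error only. Read depth was not analysed here, and fewer cells of a type, less RNA per cell, less methylation and lower depth cannot be told apart when a peak is missing from a list. Marker genes of pluripotent cells had peaks in both lists (Pou5f1 with 3 and 3 for DMSO and Dox, Nanog with 4 and 3, Sox2 with 1 and 1). Among genes of the 2-cell-like state, Duxf3 and Usp17la had none with DMSO and 4 and 5 with Dox. Duxf3 is a Dux gene of the genome, and RNA of the Dux transgene was not told apart from its own. Zscan4c had 4 with DMSO and 3 with Dox, and Zscan4d had 1 and 4.

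m6A is written onto nascent RNA by the Mettl3 and Mettl14 methyltransferase complex, at adenosines within short motifs such as GGAC, and is read by YTH-domain proteins. Long noncoding RNAs (lncRNAs) are transcripts of messenger-like structure with no long reading frame, and several of them, such as Malat1 and Xist, are known to carry m6A. A processed pseudogene is a copy of a spliced mRNA that was inserted back into the genome, and an unprocessed pseudogene is a duplicated gene that has lost its reading frame. Both resemble a coding parent, so that short reads may not tell them from it.

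By annotated type, the 134 genes comprised 32 lincRNAs, 32 antisense transcripts, 24 processed transcripts, 5 bidirectional promoter lncRNAs, 32 pseudogenes and 9 genes of small RNAs. The lincRNAs were 32 of 5854 annotated ones, and the pseudogenes 32 of 13525. RefSeq had a gene of the same symbol at the same place for 117 of the 134, and it calls 11 of these protein-coding, among them Trerf1, Cct6a, Zswim6 and Ptpmt1 of the processed transcripts and Gm15455, AU015228 and AA414768 of the processed pseudogenes. The name noncoding therefore rests on the annotation used. Of the 134 genes, 12 share a peak with another of the 134, such as Tug1 and 3 miscellaneous RNA entries inside it, which leaves 127 separate groups. At the edge of the rule, Gm27624 was inside with 18 bases, 4% of a peak of Tug1, and the next were genes with 25 bases. Just outside, Gm36936 had 22 bases of a peak that also touched coding exons by 3 bases.

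Before the results, a property of both lists has to be given. Wherever exons of both strands overlap, peaks tended to stand on both strands over the same bases. Of the 67 DMSO peaks of the 134 genes that lay over a coding exon of the opposite strand, 58 had a peak of the same list on that strand (86.6%, 76.4 to 92.8), and in the Dox list these were 36 of 40 (interval 76.9% to 96.0%). Away from opposite coding exons the numbers were 12 of 180 and 9 of 124. Coding genes showed the same, with 466 of 551 DMSO peaks over an opposite coding exon mirrored (84.6%).

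The mirrored peaks were alike in place and often in score. Seen from the noncoding side there were 77 pairs in the DMSO list, whose shared bases made up a median of 94.0% of the shorter peak, and in 40 of them the scores differed by less than 1. BC065403, antisense to the zinc-finger gene Zfp280d, had a DMSO peak of 275 nt with the same blocks and the same score, 11.3, as the peak of Zfp280d. C030034L19Rik had 5 DMSO peaks, each mirrored in Zfp704. The strand of the RNA behind such peaks cannot be told apart from these lists. Of the 134 genes, 46 had a mirrored peak and in 30 all peaks were mirrored, 16 of them among the 32 antisense transcripts, while 28 of 32 lincRNAs and 29 of 32 pseudogenes had none.

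Across the 134 genes there were 247 DMSO and 164 Dox peaks, which gives a ratio of 1.51 (1.24 to 1.83), beside the 1.45 (1.42 to 1.49) of peaks in coding genes. Peaks were found in both lists for 75 genes (56.0%, 47.5 to 64.1), beside 75.6% of all 6408 genes and 76.1% of coding genes. For 47 genes they were in the DMSO list only (35.1%, 27.5 to 43.5), beside 21.8% and 21.5%, and for 12 genes in the Dox list only (8.96%, 5.20 to 15.0), beside 2.56% and 2.40%. Of the 75 genes found with both treatments, 32 had the larger number of peaks with DMSO, 8 with Dox, and in 35 the numbers were equal. Of the 47 DMSO-only genes, 35 had a single peak. The DMSO list is the longer one as a whole, and these counts are not given here for coding genes, so that they describe no trait of noncoding genes. The share of genes in both lists was 47.1% when mirrored peaks were left out, and 62.7% when both lists were held to the same number of best-scoring peaks. Coding genes were not counted under either setting.

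**Figure D1:**
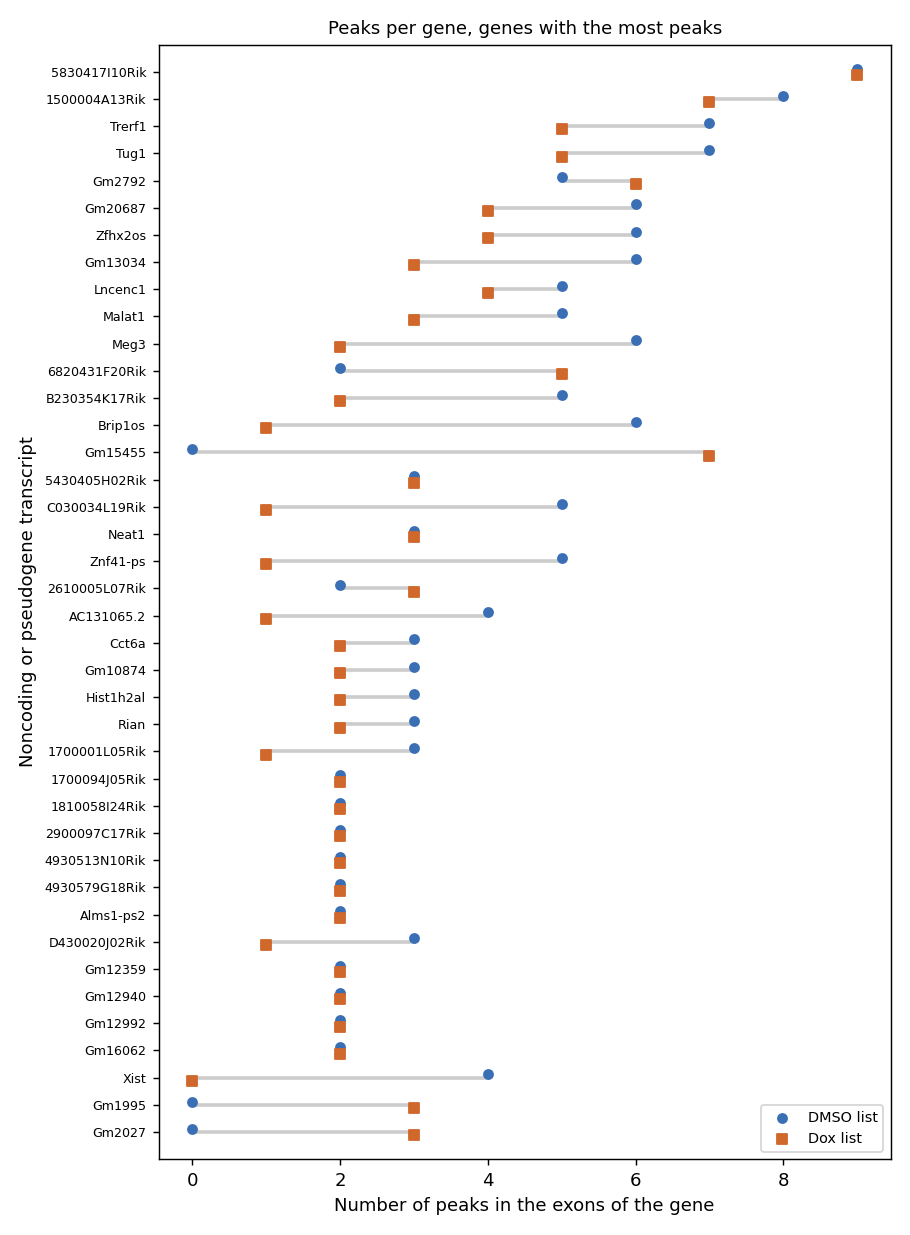
Number of peaks (x axis) in the DMSO list (circles) and the Dox list (squares) for the genes with the most peaks (y axis), 1 list per treatment and no error bars. 5830417I10Rik had 9 in each list, Meg3 had 6 and 2, Xist had 4 and 0, and Gm15455 had 0 and 7.

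By class, Dox-only genes were nearly all pseudogenes. No lincRNA, antisense transcript or processed transcript had peaks in the Dox list only (0 of 32, 0 of 32 and 0 of 24, with upper limits of 10.7%, 10.7% and 13.8%), although 2 antisense and 1 processed transcript were Dox-only once mirrored peaks were left out. Of the 12 Dox-only genes, 10 were pseudogenes, all of the processed type, and the others were the small RNAs Rpph1 and Mir8109. RefSeq calls 3 of the 10 protein-coding (Gm15455, AU015228 and AA414768). In all, 10 of the 15 genes of the processed pseudogene type were Dox-only and 5 were in both lists. With the 3 transcribed processed pseudogenes added, 10 of 18 were Dox-only (55.6%, 33.7 to 75.4), 7 were in both lists and 1 was DMSO-only. With both lists at the same size, 12 of 27 pseudogenes with a peak were Dox-only, beside 1 of 27 lincRNAs, 1 of 23 antisense transcripts and 2 of 19 processed transcripts. At that size 16.4% of all 110 noncoding genes left were Dox-only. The share of coding genes at that size is not given here.

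**Figure D2:**
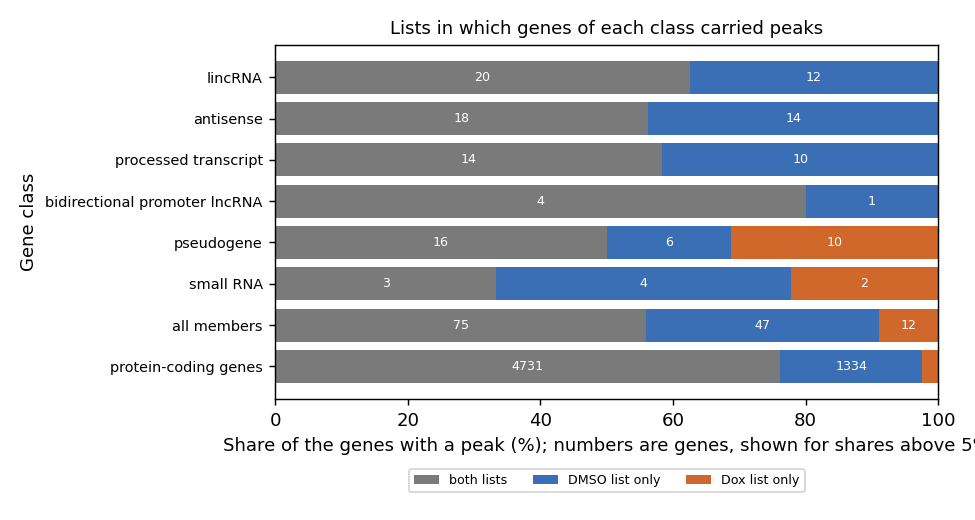
Share of genes with a peak (x axis, %) that had peaks in both lists, the DMSO list only or the Dox list only, by gene class (y axis), with the number of genes written in each bar above 5%. Dox-only genes were 10 of 32 pseudogenes, 2 of 9 small RNAs and 149 of 6214 protein-coding genes.

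The 2 lists were also compared peak by peak. Of the 247 DMSO peaks, 128 had at least 1 base in common with a Dox peak (51.8%, 45.6 to 58.0), beside 57.0% of all DMSO peaks. Of the 164 Dox peaks, 136 had such a partner (82.9%, 76.4 to 87.9), beside 92.7% of all Dox peaks. The background thus lay within the interval for DMSO peaks and above it for Dox peaks. Without the genes that RefSeq calls protein-coding, 123 of 138 Dox peaks were shared (89.1%, 82.8 to 93.3), an interval that holds the background. All 30 Dox peaks of antisense transcripts and 30 of 31 of lincRNAs were shared, against 39 of 61 of pseudogenes (63.9%, 51.4 to 74.8). Among 102 pairs that matched peak to peak, the DMSO peak was the longer in 69, the Dox peak in 9, and the median lengths were 175 and 125 nt. No such count of pairs is given here for coding genes.

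Genes of both lists had higher-ranking best peaks, by median, than genes of the DMSO list only. This is partly built in, since the best of several peaks ranks higher and 35 of the 47 DMSO-only genes had a single peak. The same values are not given here for coding genes. The best peak of a gene in both lists had a median percentile of 79.2 with DMSO and 70.9 with Dox. In the 47 DMSO-only genes the median was 31.1 and the highest 87.0, and none was above 90, against 23 of the 75. In the 12 Dox-only genes the median was 76.5, with 3 above 90, and with the peak that 2 of these genes share counted once the median of 11 peaks was 69.7, with 2 above 90. The lists hold no peak with a score below 10, so that low percentiles are those nearest to that limit.

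**Figure D3:**
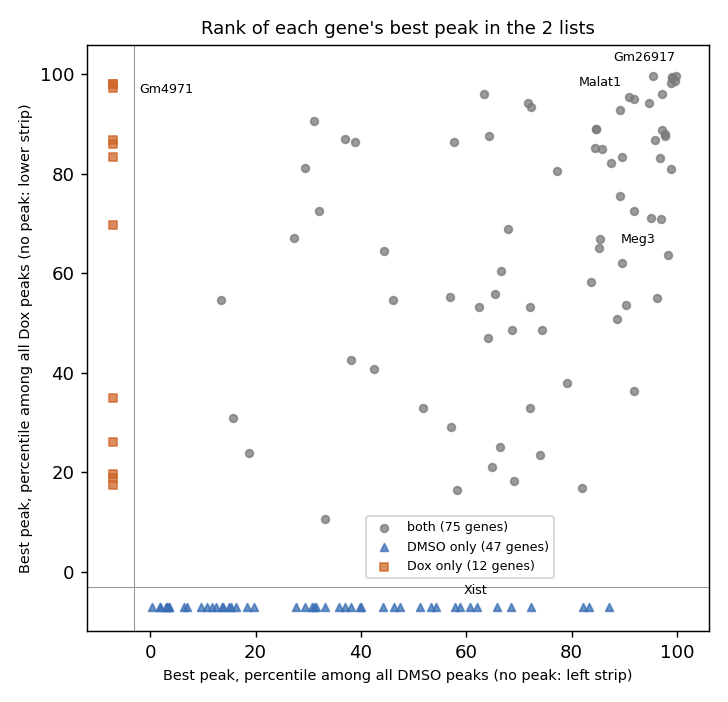
Percentile of each gene's best peak among all DMSO peaks (x axis) and among all Dox peaks (y axis), with genes that lacked a peak in a list on the strips at the left and bottom. The 47 DMSO-only genes (triangles) reach 87.0, while Gm26917 stands at 99.8 in both lists and Meg3 at 98.3 and 63.7.

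Of the peaks of these 134 genes, the best in both lists lay in Gm26917, a lincRNA entry of chromosome 17, while 28 other peaks scored higher in each whole list. It was 50 nt long, at chr17:39843538-39843587 on the plus strand, with the same edges in both lists and scores of 95.0 (DMSO) and 60.1 (Dox). The entry ends 12 nt before Rn18s-rs5, a sequence related to 18S ribosomal RNA that RefSeq lists as a pseudogene, and the neighbouring entry Gm42418, which RefSeq gives as a synonym of it, had a DMSO peak of 25 nt, score 13.8, and no Dox peak. The peak of Gm26917 held neither GGAC nor DRACH, the wider form of the m6A motif in which D is A, G or T, R is A or G and H is A, C or T. Its sequence is shown because it had the highest score of the noncoding genes in both lists, and it has no capitals since capitals mark GGAC, here and in the sequences below up to the pseudogenes.
Gm26917: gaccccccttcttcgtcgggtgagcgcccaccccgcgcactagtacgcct

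Next among the DMSO peaks of the 134 genes came 4930579G18Rik, antisense to the splicing-associated gene Acin1, with a spliced peak of 100 nt over 3 blocks and a score of 51.8 (25.95 with Dox). A peak of Acin1 covered 75 nt of it on the other strand with a score of 12.8 with DMSO and 20.8 with Dox. Its other peak, 50 nt at the 5′ end, was not mirrored and had scores of 29.6 and 16.4. Both peaks of this transcript had the same edges in the DMSO and Dox lists.

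Of the nuclear and abundant RNAs, 4 of 10 annotated ones carried a peak of their own. Malat1, a nuclear speckle RNA, had 5 DMSO peaks with scores of 18.3, 14.4, 12.7, 11.7 and 11.4, and 3 Dox peaks with scores of 45.0, 12.5 and 11.9. The DMSO peak with the highest score spanned 1700 nt from chr19:5800965-5802664 near the 5′ end of the single exon. In the Dox list the same stretch held 2 peaks, of 125 and 1075 nt, and the short one had rank 2 by score among all 164 Dox peaks described here. DMSO peaks covered 38.7% of the exonic bases of Malat1 and Dox peaks 20.05%. The 125-nt peak at chr19:5802540-5802664, on the minus strand, is shown as the stretch in which the lists differed in form. It holds no GGAC.
Malat1: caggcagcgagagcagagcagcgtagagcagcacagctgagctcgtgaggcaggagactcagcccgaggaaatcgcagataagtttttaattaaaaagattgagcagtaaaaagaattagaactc

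Neat1, the scaffold RNA of paraspeckles, had 3 DMSO peaks with scores of 14.2, 12.8 and 11.5 and 3 Dox peaks with scores of 13.6, 11.9 and 11.9. All of them had their middle within the first 2096 nt of a transcript of 20771 nt, and they held 5 of its 83 GGAC motifs. The best DMSO peak, at chr19:5843308-5843457 on the minus strand, was also found in the Dox list as a peak of 100 nt, and its sequence holds 1 GGAC.
Neat1: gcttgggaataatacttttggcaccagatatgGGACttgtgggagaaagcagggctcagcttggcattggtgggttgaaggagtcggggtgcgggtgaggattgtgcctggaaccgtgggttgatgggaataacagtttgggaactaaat

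2900097C17Rik, the mouse Norad, which binds Pumilio proteins, had 2 peaks in each list, with scores of 12.7 and 11.2 (DMSO) and 16.3 and 10.8 (Dox), all within the 5′ part of its 4915 nt. All 4 had 2 near-identical loci elsewhere in the genome, which means a match of 98% identity or more along 90% or more of the peak. Rpph1, the RNA of RNase P, had no DMSO peak and 1 Dox peak, of 25 nt and a score of 10.7. Terc, Rmrp and Rn7sk had none in either list.

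**Figure D4:**
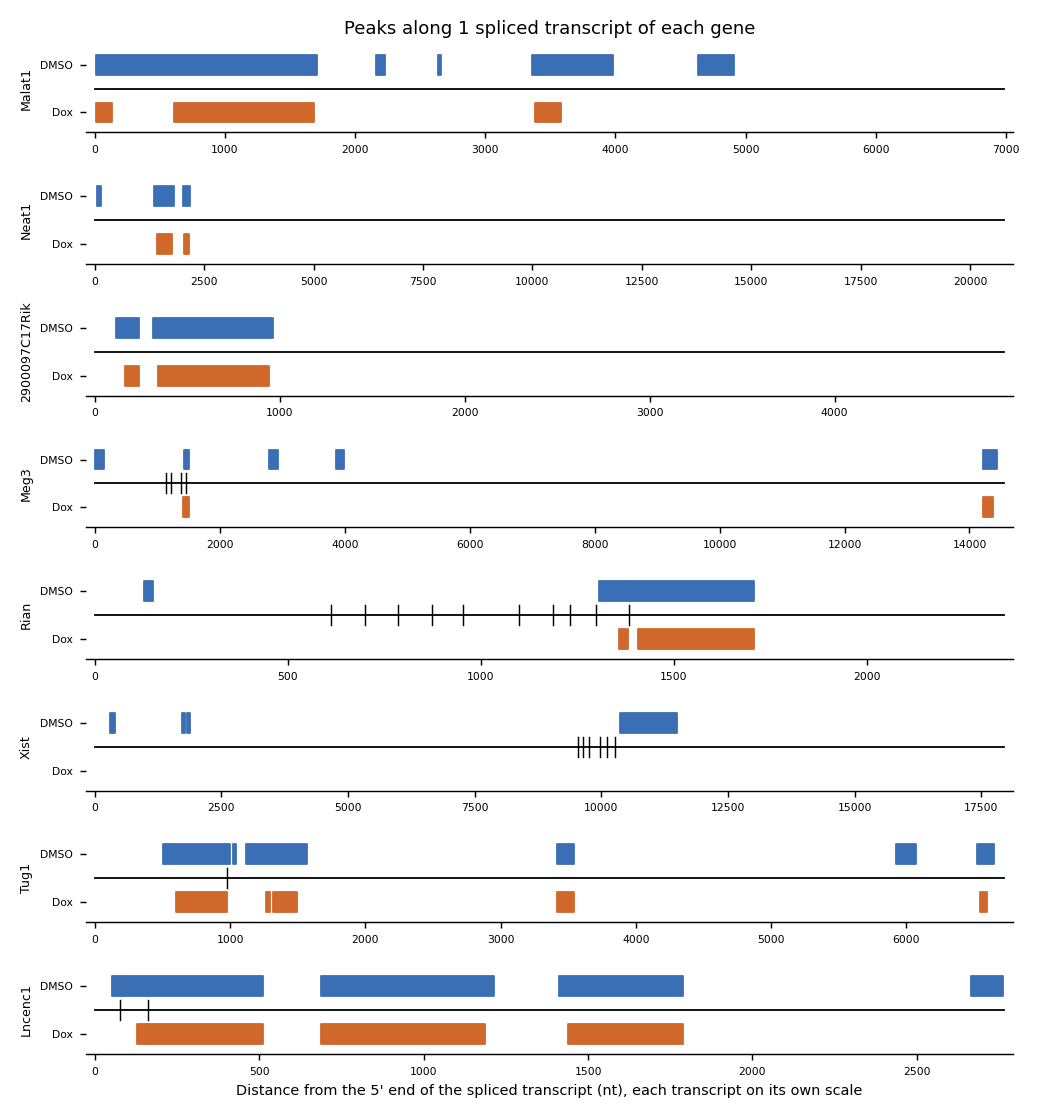
Position of DMSO peaks (upper bars) and Dox peaks (lower bars) along 1 spliced transcript of each of 8 genes, in nt from the 5′ end (x axis, each transcript on its own scale), with exon junctions as ticks and peaks that lie close together drawn as 1 bar. Neat1 and 2900097C17Rik had peaks only toward the 5′ end in both lists, and Xist had 4 DMSO peaks and 0 Dox peaks.

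Of the imprinted and X-inactivation RNAs, 6 of 13 carried a peak, all 6 of them with DMSO and 2 (Meg3 and Rian) with Dox, with 17 and 4 peaks. DMSO-only were thus 4 of 6, beside 35.1% of the 134 genes and 21.8% of all genes with a peak. Meg3, a maternally expressed RNA of the Dlk1-Dio3 region, had 6 DMSO peaks and 2 Dox peaks. Its best peak, 50 nt across an exon junction at chr12:109558294-109558662 on the plus strand, had a DMSO score of 24.8, and a 75-nt Dox peak over it had 11.3. The other shared peak lay 227 nt from the 3′ end of a 14548-nt transcript by the middle of its DMSO form, with scores of 13.2 and 11.99 and 5 GGAC. The 4 DMSO peaks without a Dox partner had scores from 10.3 to 12.4. The junction peak is given as the one with the largest score of Meg3.
Meg3: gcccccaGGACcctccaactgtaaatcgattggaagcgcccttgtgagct

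Rian, which hosts small nucleolar RNAs (snoRNAs) of the same region, had 3 DMSO peaks with scores of 15.0, 13.4 and 10.5 and 2 Dox peaks with scores of 12.7 and 10.9, both shared. Mirg, the miRNA host that follows Rian, and Nespas, antisense to Nesp in the Gnas region, each had 1 DMSO peak of 25 nt, with scores of 10.5 and 10.6. These lie close to the lowest score in the list.

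Xist, which coats the X chromosome that is silenced, had 4 DMSO peaks with scores of 12.5, 11.7, 11.2 and 10.3, and no Dox peak. The longest, of 1125 nt in the last exon, held no GGAC. The best, at chrX:103482859-103482958 on the minus strand, was mirrored by a peak of its antisense transcript Tsix, which covered all 100 nt with a score of 11.8. Tsix had 1 other peak, of 75 nt with a score of 10.2. The lowest peak of Xist, of 25 nt, also had a peak on the opposite strand, which shares bases with exons of Tsix and of the coding gene Gm26992. For both of these stretches Xist and Tsix cannot be told apart. The sequence of the best peak, as read on the Xist strand, holds 1 GGAC.
Xist: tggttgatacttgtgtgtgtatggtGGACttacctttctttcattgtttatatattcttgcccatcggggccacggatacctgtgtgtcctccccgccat

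Of the RNAs studied in pluripotent cells, 9 of 39 annotated ones carried a peak, 4 in both lists and 5 in the DMSO list only, with 26 DMSO and 11 Dox peaks. Beside these 5 of 9 stand the same 35.1% and 21.8%, and with so few genes no difference from them was shown. Eprn, found in place of a planned symbol that this GENCODE release lacks, was not counted in the list. It had 2 DMSO peaks and 1 Dox peak. Tug1, a broadly expressed lncRNA that GENCODE files as antisense, had 7 DMSO peaks and 5 Dox peaks. The miscellaneous RNA entry Gm27517, which lies inside it, shared 3 of the 7 and none of the 5. Its DMSO scores ran from 10.5 to 14.1 and its Dox scores from 10.4 to 12.1. The best DMSO peak, at chr11:3640435-3640584 on the minus strand, had no partner in the Dox list, and 4 of the 7 DMSO peaks had one. It is shown as the peak of Tug1 with the highest score, and it holds 2 GGAC.
Tug1: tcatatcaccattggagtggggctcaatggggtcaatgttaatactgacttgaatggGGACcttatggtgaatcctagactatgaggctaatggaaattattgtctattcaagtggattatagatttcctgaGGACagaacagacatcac

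Lncenc1, a lncRNA named for its abundance in ESCs, had 5 DMSO peaks with a best score of 17.7 and 4 Dox peaks with a best score of 16.3, and all 4 Dox peaks had a DMSO partner. Peaks covered 45.4% of its exonic bases with DMSO and 38.6% with Dox, and held 7 of its 11 GGAC. 1700020I14Rik (Cyrano) had 2 and 1 peaks with best scores of 11.1 and 12.5, and Platr10 had 1 and 1 with scores of 12.5 and 11.5.

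The DMSO-only RNAs of the same list were Platr4, Platr7, Halr1, Platr14 and Pvt1. Platr7 had 3 peaks with scores of 12.04, 11.8 and 11.4, Halr1 had 3 with scores of 11.5, 10.97 and 10.9, and Platr4 had 3 with scores of 11.01, 10.8 and 10.5. Platr14 and Pvt1 had 1 each, of 25 nt, with scores of 12.7 and 11.1. None of these 5 had a peak above the percentile of 72.2 in the DMSO list, and their level of expression in Dox-treated cells was not analysed here. Of other DMSO-only genes, Gm10451 had 3 peaks with scores from 10.01 to 11.2, and 9130221H12Rik, antisense to the kinase gene Gsk3a, had 2, both mirrored, with a best score of 14.5.

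Few host genes of small RNAs were among the 134. Of 18 annotated snoRNA hosts, Gas5 and the Snhg genes among them, Rian alone had a peak, and of the 10 miRNA hosts named by the symbol of their miRNA 0 had one, a list that does not hold Mirg. Among all 33508 annotated noncoding genes 0.400% were among the 134, so that these small counts say nothing particular about hosts. No pseudogene peak had its best match in a coding gene of the 2C families searched (Zscan4, Usp17l, Dux, Tdpoz, Tcstv, Zfp352 and Eif1a).

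Among genes with the most peaks, 5830417I10Rik and 1500004A13Rik lie on opposite strands of the same stretch of chromosome 3. 5830417I10Rik, an unprocessed pseudogene of Gon4l, had 9 peaks in each list, and 75.4% and 69.7% of its exonic bases were covered in the DMSO and Dox lists. All 18 peaks matched Gon4l, a regulator of transcription, with 97.1% to 100% identity, and for 17 of them the matched bases of Gon4l carried a peak in the same list. 1500004A13Rik had 8 and 7 peaks, of which 7 and 6 were mirrored in 5830417I10Rik. Its best peak, of 275 nt with scores of 31.1 and 34.8, was far above the 12.6 and 12.1 of the peak that faced it. Gm2792, a pseudogene of Tulp4, had 5 and 6 peaks, all near-identical to other loci, and Trerf1 had 7 and 5.

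Of the antisense transcripts, most faced a peak of a coding gene, so that their values describe a stretch of both strands. Zfhx2os and Gm20687, which share exons opposite to the homeobox gene Zfhx2, shared 6 DMSO peaks (3 mirrored) and 4 Dox peaks (all mirrored), with best scores of 14.01 and 14.4. 1700094J05Rik, opposite to the centrosome gene Pcnt, had 2 mirrored peaks in each list with best scores of 20.8 and 17.8. Gm12359, whose peaks lie over exons of the exon junction gene Casc3 and of Msl1, had 2 in each list with best scores of 21.1 and 14.3. Gm5577, opposite to the linker histone gene H1fx, had 2 DMSO peaks with a best score of 12.2 and 1 Dox peak with 17.9. The antisense transcripts without any mirrored peak were 6, among them Tug1, Nespas and Brip1os. Brip1os, antisense to the DNA helicase gene Brip1, had 6 DMSO peaks with scores from 10.7 to 11.2 and 1 Dox peak with 10.4. All 14 DMSO-only antisense transcripts had best scores of 14.5 or less.

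Other lncRNAs of several types had peaks in both lists, most with equal or larger numbers for DMSO. B230354K17Rik, a bidirectional promoter lncRNA, had 5 DMSO peaks with a best score of 12.3 and 2 Dox peaks with a best score of 10.9. Gm10874 had 3 and 2, with best scores of 13.98 and 13.6, and 1700001L05Rik had 3 and 1, with best scores of 13.6 and 10.6. Gm12992, opposite to the splicing factor gene Srsf4, had 2 mirrored peaks in each list, the longer of 1325 nt with DMSO and of 1300 nt with Dox. The processed transcript Trerf1, which RefSeq calls protein-coding, had 7 DMSO peaks with scores from 10.6 to 13.9 and 5 Dox peaks with scores from 10.6 to 11.8, of which 4 had a DMSO partner. Cct6a, named for a subunit of a cytosolic chaperonin and also coding in RefSeq, had 3 and 2 with best scores of 14.8 and 11.5. Zswim6 had a 25-nt DMSO peak with a score of 10.997 and 2 Dox peaks, the longer of 575 nt with a score of 12.2.

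Of the pseudogenes, the 10 Dox-only ones had 20 peaks at 9 loci, since AC127331.6 and AC127331.8 shared 1 peak. Of these 20 peaks, 19 matched a protein-coding transcript, with a median identity of 95.0%, and 14 of them with less than 98%. The 16 pseudogenes of both lists had 85 peaks, of which 80 matched a coding transcript with a median identity of 99.7%. When peaks were set aside that had another genomic locus or a coding transcript that was near-identical by the measure above, 77 of the 85 peaks were lost and 4 of the 16 genes were left, against 9 of 20 peaks and 7 of 10 genes for the Dox-only ones.

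Gm15455, a copy of the splicing regulator gene Rbm10, had 7 Dox peaks with scores from 10.02 to 13.4 and no DMSO peak. The 6 that matched Rbm10 differed from it at 13 of 748 aligned positions, and Rbm10 itself had 5 DMSO and 3 Dox peaks. Gm1995 and Gm7104 matched Rexo1, an RNA exonuclease gene, and had 3 and 2 Dox peaks. Gm1995 differed from Rexo1 at 87 of 778 aligned positions and Rexo1 had 10 DMSO and 7 Dox peaks. The best peak of Gm1995, at chr12:87862091-87862265 on the plus strand, had a score of 13.96 and 4 GGAC. It is shown beside the spliced stretch of Rexo1 it matched (chr10:80548467-80549440, minus strand), with the 15 differing bases of 175 in capitals.
Gm1995: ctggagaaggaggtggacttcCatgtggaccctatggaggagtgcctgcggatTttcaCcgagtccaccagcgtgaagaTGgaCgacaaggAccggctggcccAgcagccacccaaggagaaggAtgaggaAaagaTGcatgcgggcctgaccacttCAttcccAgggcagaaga
Rexo1: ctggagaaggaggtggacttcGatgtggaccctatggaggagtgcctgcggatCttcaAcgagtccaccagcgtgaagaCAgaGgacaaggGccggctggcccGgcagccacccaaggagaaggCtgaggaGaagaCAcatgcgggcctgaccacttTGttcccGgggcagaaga

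For Gm15455 the match is closer, as its best peak shows (chr1:33836974-33837123, minus strand, score 13.4) beside Rbm10 (chrX:20648263-20648412, plus strand), which differ at 3 of 150 positions, in capitals.
Gm15455: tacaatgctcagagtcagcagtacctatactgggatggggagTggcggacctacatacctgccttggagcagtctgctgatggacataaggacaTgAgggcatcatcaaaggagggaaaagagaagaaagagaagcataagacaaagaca
Rbm10: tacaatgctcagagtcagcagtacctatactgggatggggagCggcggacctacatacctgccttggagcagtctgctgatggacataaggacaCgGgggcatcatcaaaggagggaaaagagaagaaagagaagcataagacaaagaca

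Gm2027, a copy of Naf1, whose product helps assemble snoRNA-protein particles, had 3 Dox peaks that covered 81.3% of its 1629 bases, with scores of 13.8, 12.9 and 10.96. It lies inside the gene Pnpla8 on the same strand. Gm4971 had a single Dox peak, 900 nt long, which scored 19.9 and held 5 GGAC. The peak that AC127331.6 and AC127331.8 shared had the best score of the Dox peaks here without a partner, 22.7, and matched the elongation factor gene Elof1 at 91.0%. AU015228, AA414768 and Gm13498, a copy of the chaperone gene Hsp90ab1, had 1 peak each with scores from 10.7 to 11.1.

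Pseudogenes of both lists differed in number of peaks. Gm13034, which matched the chromatin remodeller gene Smarca5 at 95.1% to 100%, had 6 DMSO peaks with a best score of 12.9 and 3 Dox peaks with a best score of 11.5. Znf41-ps had 5 and 1, with best scores of 19.3 and 11.7. By number, 6820431F20Rik had 2 and 5, with best scores of 15.0 and 15.5, and 2610005L07Rik had 2 and 3, with 22.5 and 14.2. All of these Dox peaks had a DMSO partner and they covered fewer bases, 750 against 975 nt and 825 against 950 nt, so that longer DMSO peaks stood where several Dox peaks were listed. Both matched the cadherin gene Cdh11, which itself had no peak in either list. Hist1h2al, a histone H2A pseudogene, had 3 DMSO peaks with a best score of 11.1 and 2 Dox peaks with a best score of 14.8. All peaks of Gm13034, Znf41-ps, 2610005L07Rik and Hist1h2al had near-identical loci elsewhere, so that their numbers may not be those of these genes alone. Morf4l1-ps1 had a peak of 350 nt in each list, with scores of 18.96 and 13.9, that was identical to its parent Morf4l1.

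Of ribosomal protein pseudogenes, 285 annotated by symbol, 2 genes carried peaks by symbol or parent, and both were in both lists. Rpl14-ps1 had 1 peak in each, of 200 nt with a score of 30.7 for DMSO and of 175 nt with 39.6 for Dox, which had rank 3 among the Dox peaks here. All 175 bases of the Dox peak were identical to Rpl14, whose matched bases carried a peak in both lists, so that the copy and its parent cannot be told apart there. Rps4l had 2 DMSO peaks and 1 Dox peak, which matched Rps4x at 80.1% to 81.6%.

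Among the small RNAs, peaks fell on parts of very short genes. Mir1905, on chr3 and opposite to an exon of Mex3a, had a 75-nt peak in each list, with scores of 29.4 and 23.2, that covered all 22 nt of its mature miRNA. The facing peaks of Mex3a had 11.5 and 13.2 and covered the Mir1905 peaks in full. The strand of the RNA behind them thus cannot be told, and the peaks cannot be assigned to the miRNA. The mature sequence from RefSeq (GRCm38.p6, chr3:88536311-88536332, minus strand) is given with its seed, bases 2 to 8, in capitals, to show what the peak spans. Snord55, a snoRNA, had a 25-nt peak in each list, with scores of 28.6 and 13.2. Scarna17 had a 25-nt peak in each list, with 18.004 and 12.4, and Mir8109 had a Dox peak of 42 nt that did not reach its mature sequence.
mmu-miR-1905: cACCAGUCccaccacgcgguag

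The motif GGAC, searched on the strand of the peak, was found in 112 of the 247 DMSO peaks (45.3%, 39.3 to 51.6) and in 87 of the 164 Dox peaks (53.0%, 45.4 to 60.5). In peaks of coding genes these shares were 54.1% and 55.9%. Since longer peaks hold more motifs, peaks of 75 to 150 nt were also compared, where the shares were 45.1% and 57.1% for noncoding genes and 50.03% and 51.9% for coding genes. Its reverse complement GTCC, the same letters read on the other strand, was in 42.9% and 43.9% of the peaks of noncoding genes and in 36.5% and 36.9% of those of coding genes.

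The balance of the motif and its reverse complement followed the mirrored peaks. In mirrored peaks of noncoding genes GGAC occurred 5.06 (DMSO) and 4.90 (Dox) times per 1000 nt, and GTCC 6.40 and 6.83 times. In peaks with no peak on the opposite strand GGAC occurred 5.81 and 7.63 times and GTCC 2.71 and 2.84 times, which is near the 6.14 and 6.54 against 3.40 and 3.47 of coding genes. In pseudogene peaks GGAC occurred 6.58 and 7.90 times and GTCC 3.59 and 3.38 times. In the other peaks with no opposite peak GGAC occurred 5.46 and 7.05 times and GTCC 2.32 and 2.52 times. Of these peaks, 41.7% (33.6 to 50.2) and 42.6% (31.0 to 55.1) held GGAC, beside 54.1% and 55.9% in coding genes. Peak length was not adjusted for in these shares. In all, the exons of the 134 genes held 1811 GGAC, of which 319 (17.6%) lay in a peak of either list, and peaks of either list covered 11.5% of their exonic bases (10.04% for DMSO alone and 7.38% for Dox alone).

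**Figure D5:**
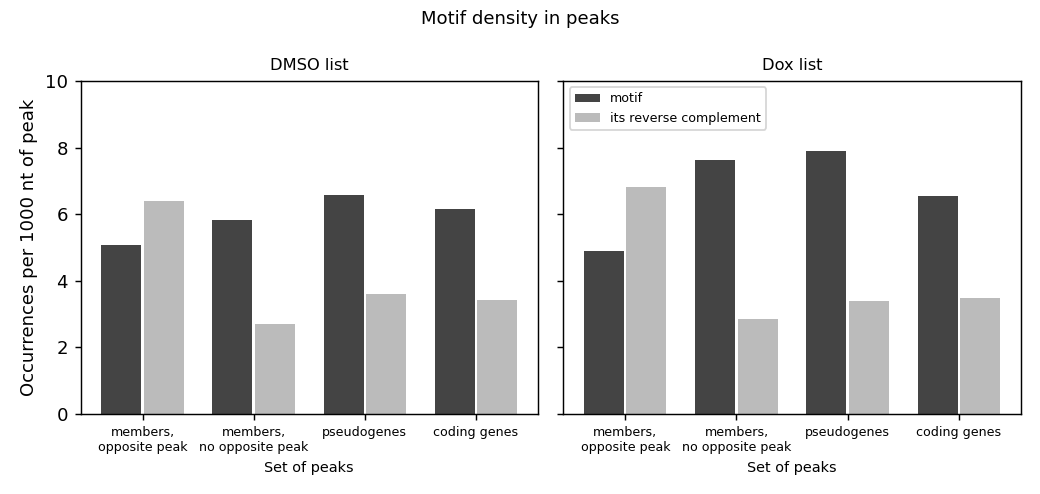
Occurrences per 1000 nt of peak (y axis) of the GGAC motif (dark bars) and of its reverse complement (light bars) in sets of peaks (x axis), for the DMSO list (left) and the Dox list (right), without error bars. The motif outnumbers its reverse complement in all sets except the mirrored peaks of noncoding genes (5.06 against 6.40 with DMSO and 4.90 against 6.83 with Dox).

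Peaks were fewer per gene than in coding genes. Of the 122 genes with a DMSO peak, 62 had a single peak (50.8%, 42.1 to 59.5), beside 32.7% of coding genes, and in the Dox list these were 48 of 87 (55.2%, 44.7 to 65.2), beside 39.7%. Peak lengths were alike, with a median of 125 nt in both classes in the DMSO list and of 150 nt against 125 nt in the Dox list. Peaks of the shortest form, 25 nt, made up 23.5% (DMSO) and 12.2% (Dox) of the peaks of noncoding genes, against 16.5% and 16.6% of coding genes.

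Along the transcript, with 1 transcript per gene, peaks of noncoding genes lay often in long exons. A peak that lies in more than 1 of the genes was placed in each, and some peaks lay outside the transcript used. Exons of at least 400 nt held the middle in 198 of 249 DMSO placements (79.5%, 74.1 to 84.1) and in 129 of 163 Dox placements (79.1%, 72.3 to 84.7), beside 64.5% and 70.4% in coding genes. In transcripts of more than 1 exon the last exon held 56.2% (49.3 to 62.9) of the DMSO peaks, beside 43.6% in coding genes, and 48.7% (39.7 to 57.8) of the Dox peaks, beside 46.6%. The median position was 35.0% (DMSO) and 36.1% (Dox) of the way from the 5′ end, beside 43.1% and 43.8%. Yet the middle lay within 500 nt of the 3′ end in 19.7% (15.2 to 25.1) of DMSO placements, beside 11.4% in coding genes. For Dox placements this was 20.2% (14.8 to 27.1), beside 11.9%. Noncoding and coding transcripts differ in length and exon number, which was not adjusted for.

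In the places looked at, most of these peaks stood apart from coding genes. This is partly built in, since the rule left out peaks over coding exons of the strand. Stretches upstream of coding genes and introns of the opposite strand were not looked at, and no share over all peaks is given. Neither inside a coding gene of the strand, nor within 5 kb downstream of it, nor over an opposite coding exon were 173 of 247 DMSO peaks (70.0%, 64.1 to 75.4) and 117 of 164 Dox peaks (71.3%, 64.0 to 77.7). Inside a coding gene lay 4 and 6 peaks, among them the 3 of Gm2027 in Pnpla8, and within 5 kb downstream lay 10 and 6. Another near-identical locus was found for 26.3% (DMSO) and 37.2% (Dox) of the peaks of noncoding genes, beside 6.76% and 7.77% in coding genes.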

How the data were processed

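MeRIP-seq libraries of IP and input RNA were made from DMSO- and Dox-treated ESCs. According to the study's methods and the submitters' notes, the authors filtered reads with fastp 0.19.4, aligned them to mm10 with HISAT2 2.2.1 and called peaks with exomePeak2. Its version, its strand setting and the way in which replicates were combined are not given in the sources used here. The value of each deposited peak was taken to be the −log10 p-value given by the authors, since all were at least 10 and a few were infinite, and whether it was adjusted is not known. Since only peaks past a threshold are listed, read depth and RNA level can move the number of peaks.

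Peaks were compared with GENCODE M21 on exon blocks. All 94 inner block edges of spliced DMSO peaks of the noncoding genes, and all 56 of Dox peaks, lay at annotated exon edges, as mm10 coordinates would. Shared peaks had at least 1 base in common on the same strand. Near-identical loci (98% identity or more along 90% or more of the peak) were searched in the GRCm38 chromosomes and unplaced sequences with blastn 2.17.0, which does not see spliced parents. Coding matches used protein-coding transcripts, with 80% identity or more along 50% or more of the peak and 25 nt or more. Positions used the transcript of a gene with most bases in peaks. Sequences were read from the RefSeq GRCm38.p6 genome. The analysis was run in Python 3.11.15, and the overlap, gene and interval steps were tested on simulated peaks. No test between treatments was made.

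Genes named were the members of the gene lists, the 3 best-scoring peaks and the 3 best without a partner per list, up to 5 genes per treatment with most peaks in that list and none in the other, and the 5 genes with most peaks. Other genes were named after their values were seen. The genes and lists were chosen with earlier results of these data known. Alternatives covered the score, list size, overlap, opposite strand, near-identical loci, gene type and motif.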

Additional observations from a re-analysis of the deposited data

How the results depend on the processing

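With 1 list per treatment no replicate could be left out. No paired analysis was possible because the lists carry no replicate. At a score of at least 15 in both lists, 32 genes were left, 31.2% of them in both lists, with 33.3% (DMSO) and 61.1% (Dox) of peaks shared. With equal list sizes, for which coding values are not given here, the ratio of DMSO to Dox peaks was 1.01. At that setting the shared peaks were 66.9% (DMSO) and 73.8% (Dox). When at least 50% of both peaks had to overlap, these were 38.5% and 57.9%. Without mirrored peaks, 47.1% of genes were in both lists, and without genes that RefSeq calls protein-coding 89.1% of Dox peaks were shared (both chosen after the data were seen). DRACH was found in 77.7% of DMSO and 82.9% of Dox peaks, where GGAC was found in 45.3% and 53.0%. At 95% identity over 50% of the peak, 38.7% of peaks had a near-identical locus, against 30.7%. The number of genes lay between 94 and 134 under the other alternatives, and other values stayed within their intervals. The cause of these shifts was not tested. The score and list-size settings leave fewer peaks by construction. No gene of the type TEC was among the 134.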
